A study of Drosophila melanogaster with 8 samples.

Results

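The eye pigment genes of Drosophila melanogaster were described in whole pupae that developed at 3 g or at the normal 1 g. The group holds the 9 genes w, st, bw, v, cn, cd, se, pr and Hn, chosen by name because they make or carry the pigments of the eye. All 9 were found by their symbols among the 13918 genes of the deposited table. By annotation w and v lie on chromosome X, pr on arm 2L, bw and cn on arm 2R, st, se and Hn on arm 3L and cd on arm 3R. Animals were of the wild-type Canton-S strain, reared at 25 °C and collected at the early pupal stage P6. There were 4 libraries of polyadenylated RNA at 3 g and 4 controls at 1 g, each made from a pool of 4 entire animals. A value thus covers the eye and every other tissue together. In such pools, fewer cells of a type and less RNA per cell cannot be told apart. The sex of the animals is not stated.

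The fly eye is coloured by a brown and a red class of pigment, which fill granules in the pigment cells around each photoreceptor cluster. Brown ommochromes are made from tryptophan by way of kynurenine. Red drosopterins are made from GTP by way of pterins. White (w) is a transporter subunit of the ABC family that works in the granule membrane as a pair with Scarlet (st) for ommochrome precursors or with Brown (bw) for pterin precursors. Several of these genes also act outside the eye: ommochrome precursors are handled in the Malpighian tubules, the excretory organ of the fly, and pterins are cofactors for making tyrosine, dopamine and the hardened cuticle. Eye colour becomes visible later in pupal life than the stage collected here.

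None of the 9 genes passed the test for a change between 3 g and 1 g. Each had a mean of at least 1 transcript per 1000000 (TPM) over the 8 libraries, the minimum for testing, and 0 of 9 passed an adjusted p of 0.05 (limma on log2 of TPM plus 0.5, adjusted over all 12044 genes tested). Over all genes tested, 516 passed (4.28%), 268 higher (2.23%) and 248 lower (2.06%). Before adjustment, 1 of the 9 (w) had a p under 0.05, beside 1958 of all genes (16.3%). Fold changes were above 0 for 4 and below 0 for 5 of the 9, with a median of -0.00068 on the log2 scale against -0.02 for all genes tested. The groups did not separate fully for any of the 9, while the 4 values at 3 g lay wholly above or below those of controls for 1505 genes (12.5%). Control replicate 4 stood apart from the other controls. It held 51.4 TPM of se, a gene of drosopterin synthesis, where the other 7 libraries held 0.650 to 1.78 TPM. It was also the highest library for 17 of 22 tested photoreceptor genes and all 9 late muscle genes described further on, beside 1699 of all genes tested (14.1%). Of the 17, ninaE and Rh3 reached the minimum for testing only through this library, so their place was fixed by that filter. For 4 of the 22 it was the lowest. For transcription factors of the eye field it was the lowest for 7 of 9 and the highest for 0, beside 4595 of all genes at the lowest (38.2%). Results that rest on it are given with and without it.

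**Figure D1:**
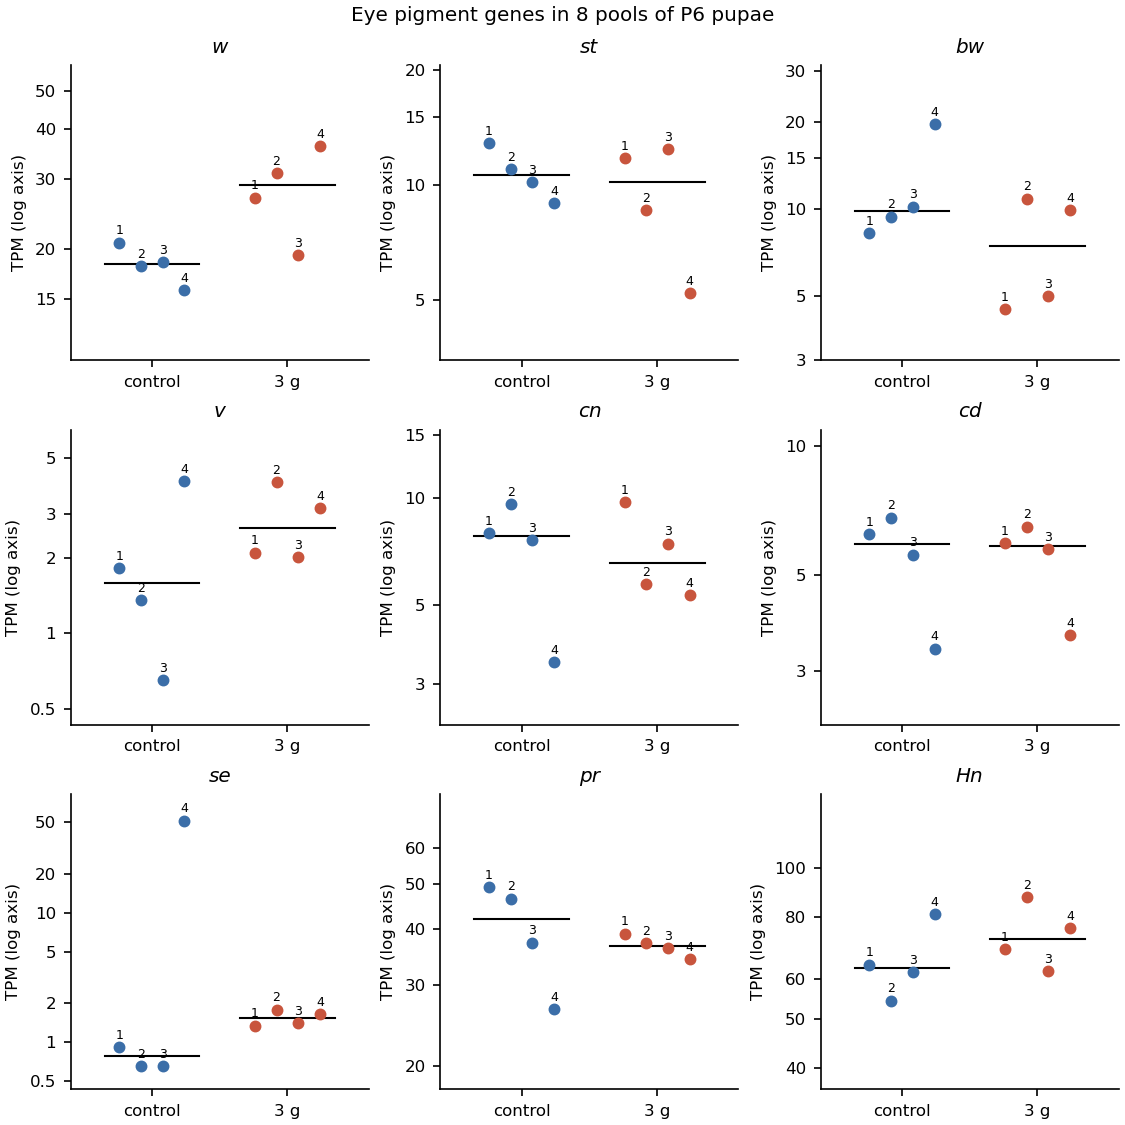
TPM (log axis, a separate range for each gene) of the 9 eye pigment genes in each library, controls in blue and 3 g in red, with the replicate number above each point and a line at the group's median. The points of the groups overlap for every gene, and control replicate 4 stands far above the other libraries for se, at 51.4 TPM.

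Among the transporters, w was at 20.7, 18.1, 18.6 and 15.8 TPM in control replicates 1 to 4 and at 27.0, 31.0, 19.3 and 36.3 TPM in 3 g replicates 1 to 4. Of the pools at 3 g, 3 lay above every control, and 3 g replicate 3 lay within the control range. The means were 18.3 ± 2.04 TPM in controls and 28.4 ± 7.17 TPM at 3 g (SD, n = 4 pools each). The log2 change of w was 0.59 ± 0.20 (SE), with a 95% interval of 0.13 to 1.05 and an adjusted p of 0.18 (limma). White thus had the smallest p of the 9 and still did not pass over all genes.

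The gene st, for the partner of White in ommochrome transport, was at 12.8, 11.0, 10.2 and 8.95 TPM in control replicates 1 to 4 and at 11.7, 8.56, 12.4 and 5.21 TPM in 3 g replicates 1 to 4. Most pools of either group lay close together, and 3 g replicate 4 was the lowest of all. Its log2 change was -0.23 ± 0.27, with a 95% interval of -0.85 to 0.39. The gene bw, for the partner in pterin transport, was at 8.24, 9.40, 10.2 and 19.6 TPM in control replicates 1 to 4 and at 4.49, 10.8, 4.98 and 9.89 TPM in 3 g replicates 1 to 4. Control replicate 4 held about 2.12 times the mean of the other controls, and 3 g replicates 1 and 3 were the lowest. The change of bw was -0.63 ± 0.37 on the log2 scale, with a 95% interval of -1.48 to 0.21 and an adjusted p of 0.50, and it was -0.37 ± 0.33 without control replicate 4.

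Because White works with one or the other partner, the ratios of their TPM were set side by side. The ratio of st to w was 0.619, 0.606, 0.547 and 0.568 in control replicates 1 to 4. At 3 g it was 0.435, 0.276, 0.642 and 0.144 in replicates 1 to 4. Controls lay close together, whereas pools at 3 g ran from above all controls in replicate 3 to far below them in replicate 4.

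For bw to w the ratio was 0.397, 0.518, 0.549 and 1.25 in control replicates 1 to 4, against 0.167, 0.349, 0.258 and 0.273 in 3 g replicates 1 to 4. Every pool at 3 g lay below every control in this ratio. The ratios were chosen after the values were seen and were not tested. The same full separation, lower at 3 g, was seen for the ratio to w of 2220 of the 12043 other genes tested (18.4%), so that bw did in this respect what many genes did. The ratio of bw to st overlapped between groups, at 0.642 to 2.19 in controls and 0.383 to 1.90 at 3 g.

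**Figure D2:**
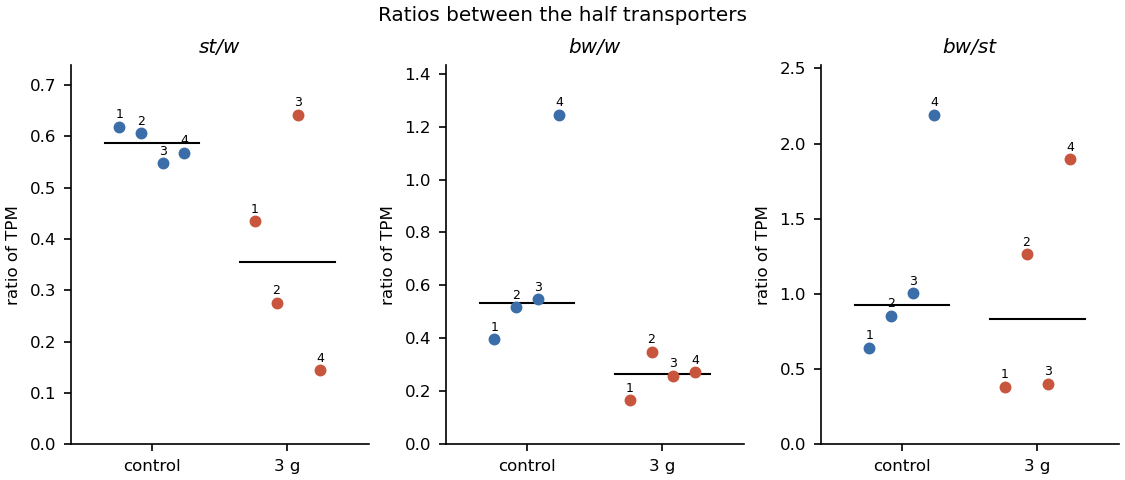
Ratios of TPM between the transporter subunit genes in each library (linear axes from 0), with the replicate number above each point and a line at the group's median. The st to w ratio was 0.547 to 0.619 in controls and 0.144 to 0.642 at 3 g, and the bw to w ratio was at most 0.349 at 3 g and at least 0.397 in controls.

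The ommochrome enzymes were the lowest of the group apart from se. Vermilion (v), the tryptophan dioxygenase that opens the pathway, was at 1.82, 1.36, 0.650 and 4.05 TPM in control replicates 1 to 4 and at 2.1, 4.00, 2.02 and 3.16 TPM in 3 g replicates 1 to 4. All pools at 3 g lay above control replicates 1 to 3, and control replicate 4 lay above all of them. The log2 change of v was 0.56 ± 0.42, with a 95% interval of -0.40 to 1.53 and an adjusted p of 0.65.

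Cinnabar (cn), which hydroxylates kynurenine, was at 7.98, 9.59, 7.61 and 3.46 TPM in control replicates 1 to 4 and at 9.72, 5.73, 7.44 and 5.33 TPM in 3 g replicates 1 to 4. Here control replicate 4 was the lowest library, opposite to v. The log2 change was 0.03 ± 0.32 (95% interval -0.71 to 0.76), and -0.26 ± 0.22 without control replicate 4. Cardinal (cd), a peroxidase that acts at the end of the pathway, was at 6.24, 6.80, 5.58 and 3.38 TPM in control replicates 1 to 4 and at 5.93, 6.48, 5.75 and 3.63 TPM in 3 g replicates 1 to 4. The replicates numbered 4 were the lowest of both groups, and the group means, 5.50 ± 1.5 and 5.45 ± 1.25 TPM, were nearly equal. The change of cd was 0.00 ± 0.25, and its 95% interval of -0.58 to 0.58 leaves room for a change of moderate size in either direction. Without control replicate 4 it was -0.20 ± 0.21. Its sign turned under quantile normalization, where it was 0.07.

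Across this pathway the ratio of cn to v was 4.39, 7.05 and 11.7 in control replicates 1 to 3 and 0.854 in control replicate 4, where v was for once the higher of the pair. It was 4.63, 1.43, 3.68 and 1.69 in 3 g replicates 1 to 4. The ratio of cd to cn moved less, between 0.610 and 1.13 over the 8 libraries. Like those of the transporters, these ratios were chosen after the values were seen and were not tested. That of cn to v rests on low values of v, at 0.650 TPM in control replicate 3.

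The pterin genes pr and Hn were the most abundant of the group. Purple (pr), the pyruvoyl-tetrahydropterin synthase that supplies both drosopterins and the pterin cofactor, was at 49.3, 46.5, 37.2 and 26.6 TPM in control replicates 1 to 4 and at 39.0, 37.1, 36.2 and 34.2 TPM in 3 g replicates 1 to 4. Pools at 3 g lay in a narrow band inside the wide control range. The means were 39.9 ± 10.3 and 36.6 ± 1.97 TPM and the log2 change -0.09 ± 0.20 (95% interval -0.54 to 0.37). Without control replicate 4, the lowest library for pr, the change was -0.26 ± 0.12 (95% interval -0.56 to 0.03).

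Henna (Hn), the phenylalanine hydroxylase that uses the pterin cofactor to make tyrosine, was at 64.2, 54.4, 62.1 and 80.8 TPM in control replicates 1 to 4 and at 68.8, 87.5, 62.3 and 75.8 TPM in 3 g replicates 1 to 4. Its values were the steadiest of the 9, and the groups overlapped over most of their range. The log2 change of Hn was 0.17 ± 0.16 (95% interval -0.20 to 0.55, adjusted p = 0.69), and 0.28 ± 0.14 without control replicate 4. Its spread within groups, an SD of 0.22 on the log2 scale, was smaller than that of pr (0.29), w (0.29) and the median tested gene (0.28). The other members spread more widely, from 0.37 for cd to 1.91 for se, and 98.9% of tested genes had a smaller spread than se.

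Sepia (se), a glutathione transferase of the Omega class that makes a precursor of drosopterins, was at 0.920, 0.650, 0.650 and 51.4 TPM in control replicates 1 to 4 and at 1.34, 1.78, 1.41 and 1.64 TPM in 3 g replicates 1 to 4. It was close to the minimum for testing in 7 libraries and among the higher members in control replicate 4, at 69.5 times the mean of the other controls. The control mean of 13.4 ± 25.3 TPM therefore describes no pool. With all libraries the log2 change was -0.63 ± 1.18 (95% interval -3.35 to 2.09, adjusted p = 0.83). Without control replicate 4 the direction of se turned, to 0.72 ± 0.18 (95% interval 0.28 to 1.16), at an adjusted p of 0.11 and an unadjusted p of 0.0064, and all 4 pools at 3 g lay above the 3 controls.

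Leaving out control replicate 4, 0 of the 9 passed an adjusted p of 0.05, beside 383 of 11999 genes (3.19%). At an unadjusted p under 0.05 stood 3 of the 9 (se, v and w), beside 1774 genes (14.8%). The groups did not overlap for 2 of the 9, se and v, as for 1855 of 12044 genes (15.4%). For v the change was then 0.92 ± 0.33 (adjusted p = 0.25) and for w 0.52 ± 0.22 (adjusted p = 0.33).

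**Figure D3:**
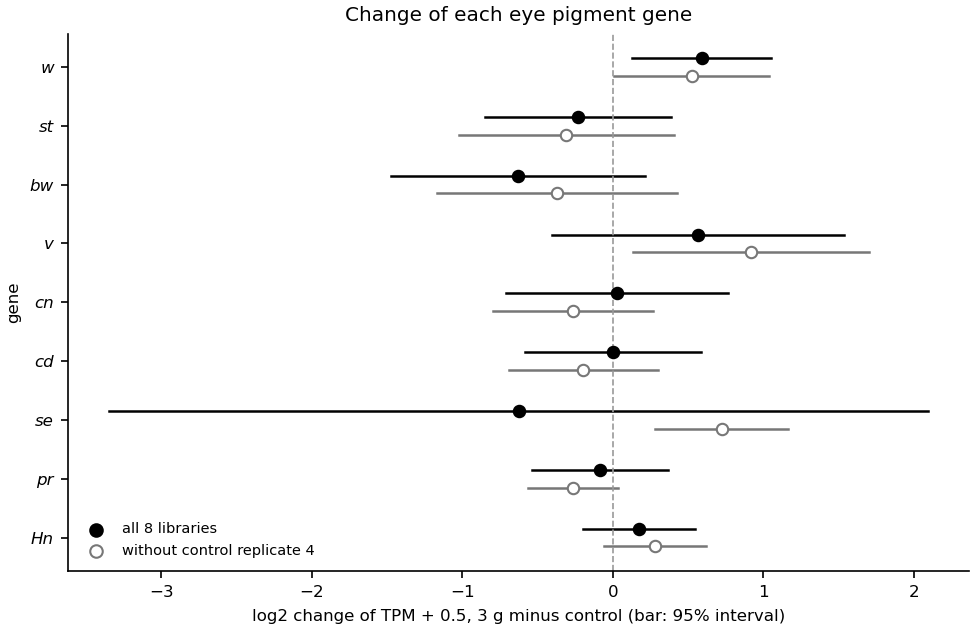
Log2 change of TPM plus 0.5, 3 g minus control, for each eye pigment gene, with all 8 libraries (filled) and without control replicate 4 (open); bars are 95% intervals from limma, not adjusted over genes. The estimate for se turns from -0.63 to 0.72 and its interval narrows, and no gene passed an adjusted p of 0.05 in either fit.

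By mean level in TPM, the order at 3 g was Hn (73.6), pr (36.6), w (28.4), st (9.47), bw (7.55), cn (7.06), cd (5.45), v (2.82) and se (1.54). The ranges of neighbours in this order overlapped between pr and w and all along st, bw, cn, cd and v. They did not overlap between Hn and pr, between w and st or between v and se. In control replicates 1 to 3 the 9 genes followed the same order, from Hn at 60.2 ± 5.13 TPM to se at 0.740 ± 0.156 TPM (SD, n = 3). In control replicate 4 se and bw stood above w, at 51.4, 19.6 and 15.8 TPM, and v above cn and cd.

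Over the 9 genes, control replicate 4 was the highest of all libraries for 3 (bw, v and se) and the lowest for 4 (w, cn, cd and pr). It was often extreme over the whole table as well, the highest for 1699 genes (14.1%) and the lowest for 4595 (38.2%). A level over 10 times the highest of the other 7 libraries was much rarer there, with 29 genes of 12044 (0.241%), and se was 1 of them. At 3 g, replicates 2 and 4 held the higher values of w, bw, v, se and Hn and the lower values of st and cn. That order was common too, since these 2 pools were both above or both below the other 2 for 4982 genes (41.4%). The 9 genes summed to 153 to 214 TPM in controls and 152 to 193 TPM at 3 g, so the groups overlapped, and to 163 TPM in control replicate 4 once se was set aside.

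**Figure D4:**
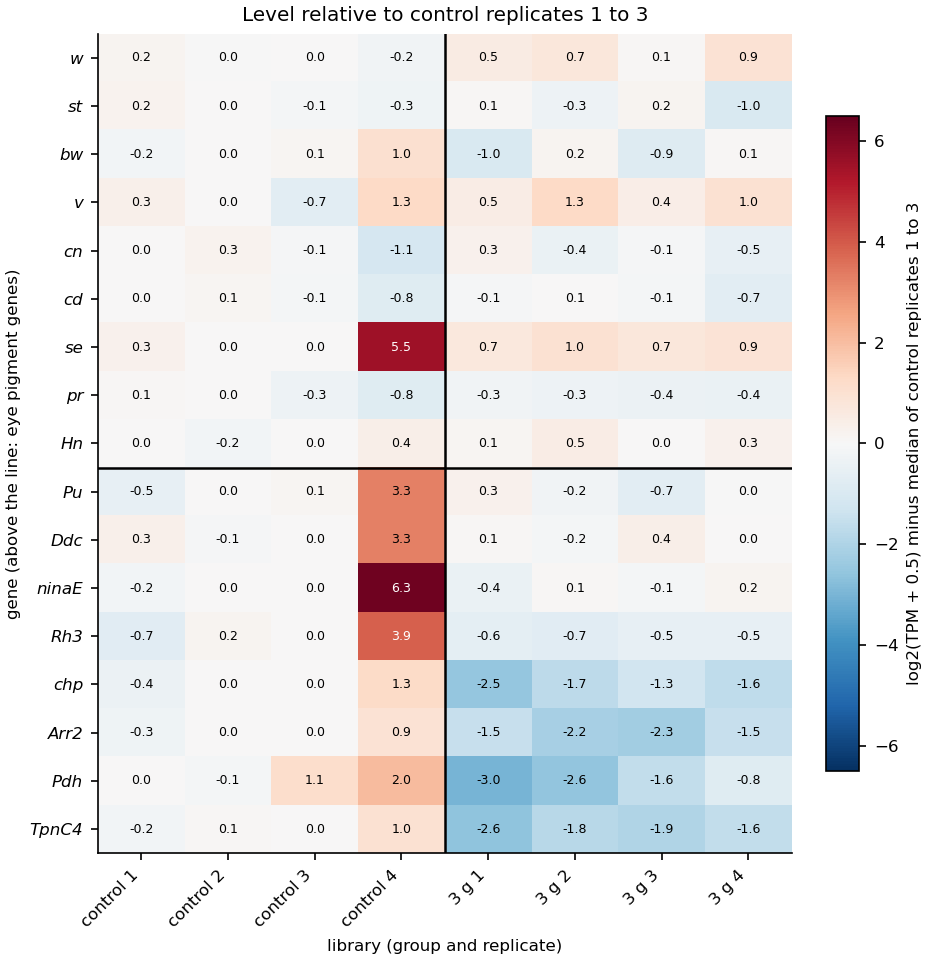
Log2 of TPM plus 0.5 in each library, minus the median of control replicates 1 to 3, for the 9 eye pigment genes (above the line) and for pterin, dopamine, photoreceptor, pigment cell and muscle genes named in the text. In control replicate 4, se, Pu, Ddc, ninaE and Rh3 stand high together, and chp, Arr2, Pdh and TpnC4 stand below 0 in every pool at 3 g.

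Other genes of the same pathways were read from lists. Of 5 measured ommochrome genes 0 were higher, 0 lower and 5 not past the threshold, with a median log2 change of 0.00. KFase, the kynurenine formamidase between v and cn, was at 18.9 ± 4.96 TPM in controls and 12.3 ± 1.36 TPM at 3 g (adjusted p = 0.18). Of 11 genes of drosopterin and pterin synthesis 0 were higher, 0 lower and 11 not past (median 0.10). Dihydropteridine reductase (Dhpr), which recycles the pterin cofactor, was at 64.0 ± 6.67 and 52.1 ± 2.07 TPM, and xanthine dehydrogenase (ry), which forms another eye pterin, at 8.31 ± 1.30 and 11.1 ± 1.89 TPM (adjusted p = 0.24 and 0.31).

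Punch (Pu), the GTP cyclohydrolase that opens the pterin pathway, was chosen after its values were seen. It was at 15.1, 21.8, 23.8 and 219 TPM in control replicates 1 to 4 and at 26.7, 18.4, 13.5 and 21.2 TPM in 3 g replicates 1 to 4. The first enzyme of the pathway and se were thus both high in control replicate 4, while pr, between them, was at its lowest there. Dopa decarboxylase (Ddc), also chosen after its values were seen, was at 85.9 TPM in that library and at 7.89 to 10.5 TPM in the other controls. In the list of tyrosine and catecholamine genes that holds it, 0 of 10 were higher, 0 lower and 10 not past (median 0.11). Of the 4 at an unadjusted p under 0.05 (limma), laccase2 was lower at 3 g, while Dat, Catsup and ple were higher. Catsup and ple were named after their values were seen. The cuticle-tanning oxidase laccase2 was at 165 ± 10.9 TPM in controls against 109 ± 20.1 TPM at 3 g (adjusted p = 0.065). Dat was at 63.7 ± 11.8 against 117 ± 32.3 TPM (adjusted p = 0.085). The count of lower genes in this list was 1 (laccase2) with sample weights or without 3 g replicate 2 (adjusted p = 0.006 and 0.047, limma).

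The genes that supply and finish these pathways gave no call with all libraries weighted alike. Of 9 genes of GTP supply 0 passed (median 0.23), with ade3, a purine synthesis enzyme, at 15.5 ± 0.988 against 36.3 ± 15.8 TPM (adjusted p = 0.10), followed by ade5 (adjusted p = 0.23). Without 3 g replicate 1, ade3 alone of these 9 passed (log2 change 1.40, adjusted p = 0.017). Of 4 genes of the molybdenum cofactor, which xanthine dehydrogenase needs, 0 passed (median 0.26), with Mocs2 and Mocs1 at adjusted p of 0.30 and 0.43, and Mocs2 passed with sample weights (adjusted p = 0.0496). Of 20 genes of pigment granule formation 0 passed (median 0.11), led by Blos4, at 12.3 ± 1.59 against 16.4 ± 1.87 TPM (adjusted p = 0.19), and Muted (adjusted p = 0.50).

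Among the 15 genes of the ABCG family of transporter subunits, which holds w, st and bw, 1 was higher, 0 lower and 14 not past (median 0.27). CG5853 rose from 47.3, 32.7, 41.6 and 27.0 TPM in control replicates 1 to 4 to 68.9, 92.6, 69.9 and 76.1 TPM in 3 g replicates 1 to 4. Its pools did not overlap between groups, and its log2 change was 1.06 ± 0.20 (adjusted p = 0.026, limma). The call of CG5853 was lost on leaving out control replicate 2, control replicate 3 any 1 of 3 g replicates 2, 3 and 4, or control replicate 4 and 3 g replicate 2 together (adjusted p 0.053 to 0.097). Of the 4 measured Omega glutathione transferases 0 passed (median -0.11). The relatives of se were abundant in every library, with GstO1 at 43.8 ± 6.37 and 40.3 ± 6.87 TPM, GstO2 at 89.3 ± 9.97 and 83.4 ± 7.63 TPM and GstO3 at 80.3 ± 5.29 and 120.3 ± 45.6 TPM in controls and at 3 g.

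Some members share a stretch of the genome with another gene on the opposite strand, and the sources used here do not say whether reads were counted by strand. By the Ensembl annotation of the assembly BDGP6, exons of se overlap those of GstO2, exons of bw those of mi and exons of pr those of bwa, a ceramidase gene. If strand was not used, reads from the exon stretches that a pair shares cannot be told apart. Values over whole genes cannot show how reads from the shared stretches were assigned. GstO2 was at 75.2 TPM in control replicate 4, where se was high, against 89.7 to 97.3 TPM in the other controls, and mi at 7.16 against 10.2 to 11.3 TPM. For bwa the log2 change was 0.82 at an unadjusted p of 0.011 (limma), while pr was at -0.09. Both bwa and pr were at their lowest in control replicate 4, at 46.4 and 26.6 TPM. The gene w lies inside kirre and st inside CG43373 without shared exons. A further transcript that overlaps cn was not analysed here.

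Markers of eye cells were read beside the pigment genes. Of 22 tested photoreceptor genes 0 were higher, 2 lower and 20 not past, with a median log2 change of -0.82. Unadjusted, 10 had a p under 0.05. Their summed level was 246 to 628 TPM in controls, the highest in control replicate 4, and 171 to 205 TPM at 3 g. Arrestin 2 (Arr2), which ends the light response, fell from 12.9 ± 5.61 to 2.74 ± 0.915 TPM (log2 change -2.01 ± 0.31, adjusted p = 0.014). Chaoptin (chp), an adhesion protein of the photoreceptor membrane, fell from 53.8 ± 31.4 to 12.3 ± 4.22 TPM (log2 change -2.01 ± 0.40, adjusted p = 0.034). Each lost its call in single alternatives. The count of lower genes in the list was 0 without control replicate 2. It was 1 on leaving out control replicate 3 or any 1 of 3 g replicates 1, 2 and 4, and 1 with either other scaling. The count was 3 without control replicate 1, 4 without control replicate 4 and 6 with sample weights.

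The rhodopsin genes were chosen after their values were seen. Rhodopsin 1 (ninaE), the main visual pigment protein, was at 56.7 TPM in control replicate 4 and at 0.040 to 0.310 TPM in the other 7 libraries. Rh3 was at 12.1 TPM there and at 0.440 TPM or less elsewhere, and Rh2, Rh6, trpl and ro had means under 1 TPM and were not tested. Like se, both ninaE and Rh3 stood over 10 times above the highest of the other libraries. Both reached the minimum for testing only through control replicate 4.

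A list named for cone and pigment cells also held the carotenoid genes ninaB, ninaD and santa-maria. The tissue from which their transcripts came was not tested. Of the 14 measured genes of this list 0 were higher, 0 lower and 14 not past (median -0.12). Pdh, a retinol dehydrogenase of the eye, was at 105 ± 77.3 TPM in controls and 15.1 ± 10.8 TPM at 3 g (adjusted p = 0.054), and ninaD, a carotenoid receptor, at 31.7 to 40.6 TPM in controls and 2.36 to 24.4 TPM at 3 g (adjusted p = 0.079). By contrast santa-maria, chosen after its values were seen, was at 45.3 ± 9.12 TPM in controls and 77.1 ± 36.0 TPM at 3 g (adjusted p = 0.37, limma). The count of lower genes was 2 (Pdh and ninaD) with sample weights, at adjusted p of 0.0071 and 0.0030. It was 1 (Pdh) without 3 g replicate 4 and 1 (ninaD) without 3 g replicate 2, alone or together with control replicate 4. The summed level of this list was 269 to 400 TPM in controls and 211 to 264 TPM at 3 g. Of 9 transcription factors of the eye field 0 passed (median -0.02), with ato and Optix at adjusted p of 0.15 and 0.70, and their summed level overlapped fully, at 69.9 to 102 TPM in controls and 68.1 to 99.8 TPM at 3 g.

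Outside the eye, of 8 tested genes of a list named for the Malpighian tubules 3 were higher, 0 lower and 5 not past (median 0.84). The tissue from which these transcripts came was not tested. The chloride channel gene ClC-a rose from 6.41 ± 0.325 to 15.7 ± 4.25 TPM (adjusted p = 0.026), the potassium channel gene Irk2 from 3.81 ± 0.725 to 17.6 ± 11.0 TPM (adjusted p = 0.028) and the cotransporter gene Ncc69 from 20.9 ± 1.88 to 34.4 ± 4.44 TPM (adjusted p = 0.028). The gene Uro, urate oxidase, was at or near 0, with at most 0.470 TPM, and was below the minimum for testing. Irk3 and byn, chosen after their values were seen, were lower at 3 g but did not pass. Their log2 changes were -0.46 and -0.22 (adjusted p = 0.53 and 0.68, limma). The list's summed level was 56.7 to 84.8 TPM in controls and 104 to 171 TPM at 3 g, and 0 members passed on leaving out any 1 of control replicates 2, 3 and 4 or 3 g replicate 2, and 1 on leaving out 3 g replicate 1 or 4.

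The lists drawn up to mark developmental time separated the groups most. These lists were chosen with earlier results of the same data known, so their separation is not independent support. The first of them mixed fat body genes with salivary gland genes, among them Eig71Ea and Eig71Eg. Of its 10 genes 5 were higher and 0 lower (median 3.04), led by Eig71Ea, Eig71Eg and Lsp1gamma. Their sum was 2120 to 4183 TPM in controls against 10840 to 29780 TPM at 3 g. Of 9 late pupal muscle genes 8 were lower and 0 higher (median -2.20), led by TpnC4, Act79B and Mlp60A, with 1125 to 1814 TPM at 3 g against 3463 to 12885 TPM in controls, the highest again in control replicate 4. Muscle members lower numbered 1 without control replicate 2 and 4 or 5 without control replicate 3 or any 1 of the pools at 3 g. The part of tissue makeup and developmental time in the values of the pigment genes was not tested.

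**Figure D5:**
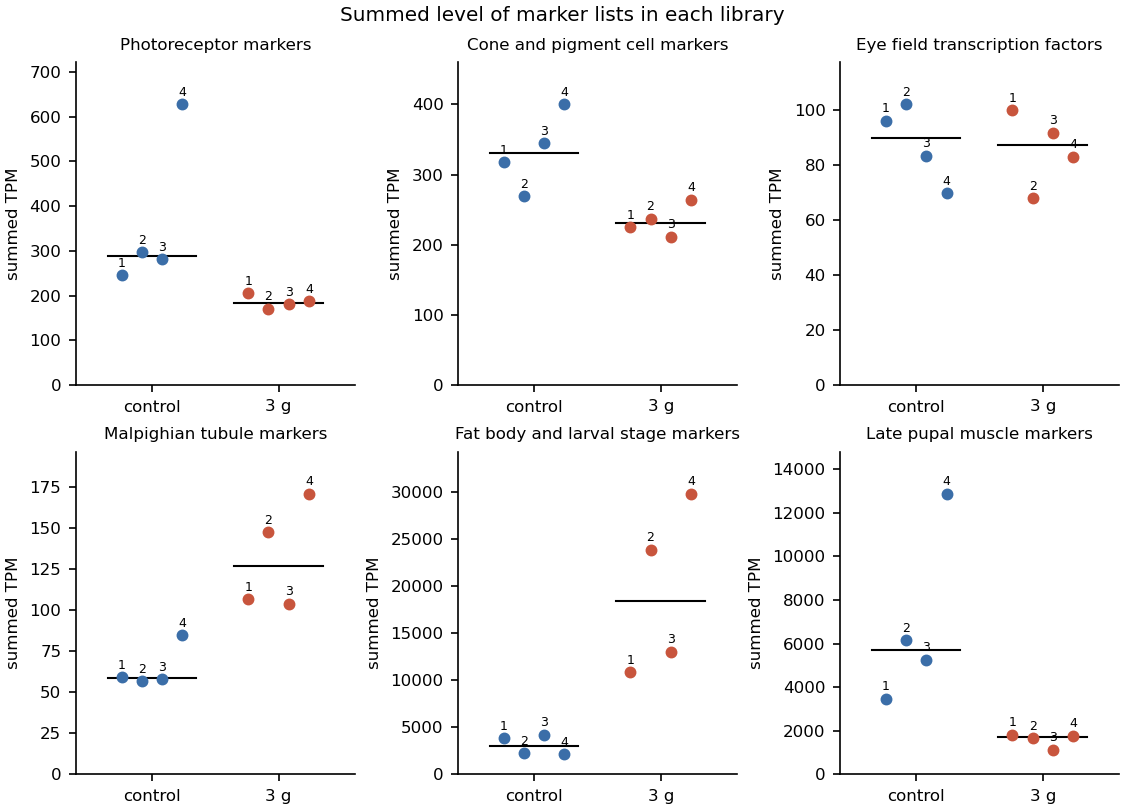
Summed TPM of 6 marker lists in each library (linear axes from 0), with the replicate number above each point and a line at the group's median. The sums of photoreceptor and muscle markers are highest in control replicate 4, at 628 and 12885 TPM. The list titled fat body and larval stage includes salivary gland genes. Its sum and that of Malpighian tubule markers are higher in every pool at 3 g than in any control.

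Genes with the most similar profiles were sought among 10272 genes that averaged 5 TPM or more, by Pearson correlation of log2 of TPM plus 0.5 over the 8 libraries after the group means were removed. Libraries are shares of a total, so that all genes in them vary together to some degree. The closest to se was ninaE (r = 0.995), followed by CG10953 (r = 0.990), and both pairs rest on control replicate 4. These 2 genes averaged 5 TPM or more only through that library, so a high r with se was largely fixed by the filter. For bw it was Drip, an aquaporin (r = 0.963), followed by Dbi, an acyl-CoA binding protein (r = 0.958). For w it was ATPCL, the ATP citrate lyase (r = 0.992), followed by CG6287 (r = 0.987), and for st CG14223 (r = 0.992) and the formin dia (r = 0.991).

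The enzyme genes had neighbours of many kinds. Those of v were CG42231 (r = 0.928) and Sodh-2 (r = 0.911), those of cn mTerf5 (r = 0.995) and pxb (r = 0.992), and those of cd CG3815 (r = 0.995) and Rcd5 (r = 0.986). Tsp66E (r = 0.991) and Hexim (r = 0.985) were closest to pr, and AnxB10 (r = 0.960) and CG12009 (r = 0.952) to Hn. Such likeness was common, with r above 0.9 for 721 genes in the case of cn, 277 for pr, 235 for cd, 131 for st, 125 for w, 70 for se, 12 for bw, 11 for Hn and 2 for v. No eye pigment gene was searched against another.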

How the data were processed

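Polyadenylated RNA of 8 pools of pupae was sequenced as paired ends of 100 bp, per the labels. The submitters' processing notes name eXpress 1.5.1, Bowtie2 2.1.0, Trimmomatic 0.30, DESeq and CASAVA without saying what each did. The genome build is not stated in the sources used here. The table deposited by the authors holds whole numbers, treated as a score and read as TPM times 100, since each library sums to 1000000 TPM after division by 100. TPM keeps no read depth, so counting error is unknown.

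All genes averaging 1 TPM or more (12044) were fitted with limma 3.58.1 in R 4.3.3 on log2(TPM + 0.5), with an intensity trend, no covariate and Benjamini-Hochberg adjustment over all of them. The fit was tested on simulated data. Fold changes on this scale understate those of low genes. The 95% intervals use limma's SE and are not adjusted over genes. The members, the 14 lists and the tests were chosen with earlier results of these data known. Named are the members, from each list up to 3 called genes or, with no call, the 2 of smallest p, the relatives of se, and 2 genes most like each member. Of 160 list entries 4 were not matched by name. No source states separate cultures for the replicates, and a p-value here reflects how far these pools vary, which may be technical.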

Additional observations from a re-analysis of the deposited data

Results flagged for a closer look

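Of 18 groups of 4 values examined for the 9 eye pigment genes, 2 held a library apart from its group by more than Dixon's criterion at 95% allows. For normally distributed values chance gives this in about 1 of 20 groups. The criterion was applied to TPM without logs, which need not be so distributed. Both were control replicate 4 on the high side, at 51.4 TPM of se, where the other controls held 0.650 to 0.920 TPM, and at 19.6 TPM of bw, where they held 8.24 to 10.2 TPM. The gap for bw was only just wide enough, at 0.830 of the group's range in TPM, and was not examined on the log2 scale.

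Over the 62 genes examined, those 9 included, 16 of 124 groups held a library apart, 13 of them control replicate 4. Many of these genes were chosen after their values were seen, or for likeness to a member over these same libraries. These counts therefore cannot be set against the share that chance gives. Beyond the 2 above, that library was high for chp (100.2 TPM), TpnC4 (736 TPM), Pu (219 TPM), ninaE (56.7 TPM), Rh3 (12.1 TPM) and Ddc (85.9 TPM), of which the last 4 were chosen after their values were seen. Of the genes named for a profile like that of a member, it was high for CG10953 (67.6 TPM), Drip (43.2 TPM) and Sodh-2 (16.6 TPM) and low for pxb (7.68 TPM) and Rcd5 (32.9 TPM). At 3 g, KFase was low in replicate 4 (10.3 TPM), ClC-a low in replicate 3 (9.35 TPM) and Mocs2 high in replicate 3 (8.94 TPM).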

How the results depend on the processing

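The count of eye pigment genes past the threshold was 0 in the fit reported and in all 19 alternatives (limma, 1 to 3 of them at an unadjusted p under 0.05), and the adjusted p of a member was 0.057 or higher throughout. The log2 change of w stayed between 0.46 and 0.76, that of v between 0.26 and 1.28, that of bw between -0.83 and -0.37 and that of Hn between 0.09 and 0.28, while those of st, cn, cd, se and pr, and that of Ddc, turned sign in some alternatives. With sample weights that of se was 0.73, that of cn -0.039 and that of Ddc 0.13. With a pseudocount of 0.1 that of cd was 0.00045 and with quantile normalization 0.070. With 1 library left out, or with both control replicate 4 and 3 g replicate 2 omitted (an alternative chosen once the data had been seen), cd ran from -0.28 to 0.17, cn from -0.26 to 0.18, pr from -0.27 to 0.027, st from -0.38 to 0.015, se from -1.11 to 0.72 and Ddc from -1.13 to 0.072. The count of all genes past the threshold was 1193 with sample weights, 147 with the replicate block, 162 to 479 with 1 library left out and 228 with both left out. Same-numbered libraries did not vary together (r between -0.516 and 0.081), so the numbers were not taken to pair them, and the replicate block called 0 eye pigment genes. With the block CG5853, Arr2, chp, ClC-a, Irk2 and Ncc69 were no longer past the threshold (adjusted p 0.055 to 0.153), and Pdh was (adjusted p = 0.0079). The cause of these shifts was not tested. Precision is limited by 4 pools a group and by the unknown depth. The SE of the change of se was 1.18 with control replicate 4 and 0.18 without it.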
